A study of Mus musculus with 2 samples.

Results

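The genes described here are 10 regulators of cell death, 9 of the BCL2 family and Cflar, and the data are the Aiolos peaks at or near them in mouse natural killer (NK) cells. The members were taken by gene symbol from the peak list of the study, which holds 1404 peaks assigned to 1276 genes. Of the 10 members, 4 had an assigned peak (Bbc3, Bcl2l11, Bcl2l1 and Cflar), with 5 peaks in all, and 6 had none (Bid, Pmaip1, Bax, Bak1, Bcl2 and Mcl1). For comparison, 5.38% of the 21896 protein-coding genes had an assigned peak. The members were picked with these results known, so the contrast with that share is a description and was not tested.

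The peaks come from CUT&RUN, which sequences the DNA released by a nuclease that an antibody brings to its target. There were 2 groups of 1 library each, one with an antibody against Aiolos, the Ikaros family zinc finger factor encoded by Ikzf3, and one without primary antibody. Both used spleen NK cells grown up with interleukin-15 (50 ng/ml), 500000 cells or more per library. The labels give no strain, age or genotype. Expanded cells are not resting NK cells, and the list has no replicate, so each value below is a single measurement with an interval for counting error alone. No expression was measured. Of the marker genes, 4 of 10 for NK cells, 1 of 6 for T cells, 0 of 5 for B cells and 0 of 5 for myeloid cells had an assigned peak. The share over protein-coding genes was 5.38%, and these counts are no check of cell identity.

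In the mitochondrial pathway of apoptosis, pro-survival proteins such as BCL2, BCL-XL (encoded by Bcl2l1) and MCL1 hold the effectors BAX and BAK in check. BH3-only proteins, among them PUMA (Bbc3), BIM (Bcl2l11), BID and NOXA (Pmaip1), bind the pro-survival proteins or the effectors and so start the permeabilisation of the outer mitochondrial membrane. Cflar encodes c-FLIP, which is no BCL2 family member and acts at death receptors, where it restrains caspase 8. NK cells depend on interleukin-15 for survival, and the balance of MCL1, BCL2 and BIM is known to matter for it.

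The sequences around the gene starts were read for the members. RefSeq promoter windows on GRCm38.p6, each of 250 bases before and 50 after a listed start, covered 9 of the 10 members with 14 windows, and 0 of the 14 contained a member peak. The closest case was Bcl2l1, whose peak began 2 bp past the 3′ end of the window at chr2:152831679-152831978 (minus strand). It is shown with the window of Mcl1 at chr3:95658471-95658770 (plus strand), which held the most matches to GGGAA of the member windows but had no assigned peak. The window of the related gene Bcl2l13 at chr6:120835980-120836279 (plus strand) contained a summit. Capitals mark GGGAA, the core letters bound by Ikaros family zinc fingers, or TTCCC, the same letters on the other strand.
Bcl2l1: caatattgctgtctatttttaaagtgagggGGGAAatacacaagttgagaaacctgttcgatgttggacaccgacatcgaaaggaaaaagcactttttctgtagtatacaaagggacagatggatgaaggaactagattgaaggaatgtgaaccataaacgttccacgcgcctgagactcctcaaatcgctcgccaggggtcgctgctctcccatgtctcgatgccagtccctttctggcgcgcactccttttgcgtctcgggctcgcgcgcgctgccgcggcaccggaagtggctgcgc
Mcl1: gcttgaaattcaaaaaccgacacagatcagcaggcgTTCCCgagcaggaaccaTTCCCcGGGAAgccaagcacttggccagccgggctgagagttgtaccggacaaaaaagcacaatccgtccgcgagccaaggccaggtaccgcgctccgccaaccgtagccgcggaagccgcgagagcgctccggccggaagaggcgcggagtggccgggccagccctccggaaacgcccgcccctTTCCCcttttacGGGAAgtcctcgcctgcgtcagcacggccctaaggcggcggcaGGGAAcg
Bcl2l13: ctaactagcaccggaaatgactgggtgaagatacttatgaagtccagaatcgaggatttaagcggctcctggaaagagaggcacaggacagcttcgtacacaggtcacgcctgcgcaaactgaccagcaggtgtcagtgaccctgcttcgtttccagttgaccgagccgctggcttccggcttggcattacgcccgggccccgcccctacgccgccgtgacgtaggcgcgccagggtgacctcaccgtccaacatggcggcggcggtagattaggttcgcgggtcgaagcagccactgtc

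The Bcl2l1 window held 1 match to GGGAA, the Mcl1 window 6 and the Bcl2l13 window 0. Over the members, 7 of 14 windows had at least 1 match on either strand, against 62.7% of all 32851 promoter windows and 63.2% of the 378 windows that contained a summit. The AP-1 motif TGANTCA was in 0 of the 14 member windows, against 7.81% of all windows and 5.82% of those with a summit. TGGGAA, which contains GGGAA, was in 1 of 14, the window of Bax, against 25.6% of all windows and 20.1% of those with a summit. The GC box GGGCGG was in 9 of 14 member windows, against 35.7% of all windows and 69.3% of those with a summit. The 9 windows came from 6 genes. The windows of Bcl2l1 and Cflar, the members with a summit within 1000 bp of a RefSeq start, held 0. The 5 member peaks lay outside every window, so the letters under them were not read.

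Among the BH3-only genes, Bbc3 carried the strongest peak of the members. The 5′ peak of Bbc3, at chr7:16312932-16313170 on mm10, was enriched 11.98-fold by the authors' value, and its -log10 q was 16.6. The fold rested on 18 tags, the fragments piled up at the summit as solved from the authors' fold and p-value, and its 95% interval from their exact Poisson error was 7.36 to 18.6. It ranked 56th of the 1404 peaks by fold, above 94.4% of the 910 promoter peaks, and a promoter peak here is one whose centre lies within 1000 bp of the start of the transcript that the authors annotated. The 3′ peak of Bbc3, at chr7:16313428-16313728, had 4.83-fold (2.11 to 10.2) from 5 tags, with 2.78 as its -log10 q, above 9.56% of promoter peaks. The peaks were 257 bp apart and their summits 403 bp. A second promoter peak was uncommon: 27 of the 880 genes with a promoter peak had more than 1 (3.07%). The fold of the 5′ peak was 2.48 times that of the 3′ peak (conditional 95% interval scaled from the tag ratio, 0.888 to 8.55), so their order was not resolved at this depth.

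The promoter label of Bbc3 rested on an internal start. The annotated transcript is 4181 bp long and begins 3086 bp downstream of the nearest RefSeq start, and the RefSeq starts listed for the gene number 3. From that nearest start the summits lay 2.67 kb and 3.07 kb downstream, within the 9.94 kb gene. Of the 763 promoter peaks whose gene has a listed RefSeq start, 698 (91.5%) had their summit within 1000 bp of one, and 45 (5.90%) lay more than 2500 bp away, as the pair at Bbc3 did. By the authors' start, with negative offsets upstream of it, the 5′ summit was at -421 bp and the 3′ summit at -18 bp. The windows of the 3 RefSeq starts held 1, 1 and 0 matches to GGGAA and 5, 4 and 7 to GGGCGG, and none of them reached a peak. Which start NK cells use was not measured. Upstream of Bbc3, 2 distal intergenic peaks assigned to its neighbour Ccdc9 began at -13.9 and -12.9 kb from the most upstream RefSeq start of Bbc3, at 5.63-fold and 6.75-fold.

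Bcl2l11 had a weaker peak, in an intron. The peak at chr2:128152986-128153266 had 5.05-fold (2.41 to 9.73) from 7 tags, with 2.81 as its -log10 q, above 19.5% of the 190 intronic peaks of the list. The authors placed it in intron 3 of 4, and its summit was 25.5 kb downstream of the nearest RefSeq start. The transcript used for its distance is a fragment of 607 bp near the 5′ end of the gene. The background at the summit, as solved from the fold and p-value, had the size of 1 control tag. When the counting error of that tag was carried too, the interval of the fold widened to 0.895 to 13.0 and so reached 1. For the 5′ peak of Bbc3, whose solved background also had the size of 1 control tag, the same step gave 2.74 to 24.8.

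The other BH3-only genes and the effectors had no assigned peak and no peak in the gene body or within 10000 bp. Bid, which is cleaved by caspase 8 and links death receptors to mitochondria, lay 56.9 kb from its nearest peak, the promoter peak of Bcl2l13. Bax lay 27.1 kb from the promoter peak of Ruvbl2, which encodes an ATPase of chromatin remodelling complexes and reached 13.7-fold (8.17 to 21.7, 16 tags). Bak1 lay 304 kb from a peak of Crebrf. Pmaip1 lay 658 kb from a peak of Sec11c, the signal peptidase subunit gene, at 13.2-fold. Over 21627 protein-coding genes the median distance to the nearest peak was 404 kb (quartiles 95.3 and 1319 kb), so Bid and Bax were nearer to a peak than most genes, Bak1 was somewhat nearer than the median and Pmaip1 farther.

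**Figure D1:**
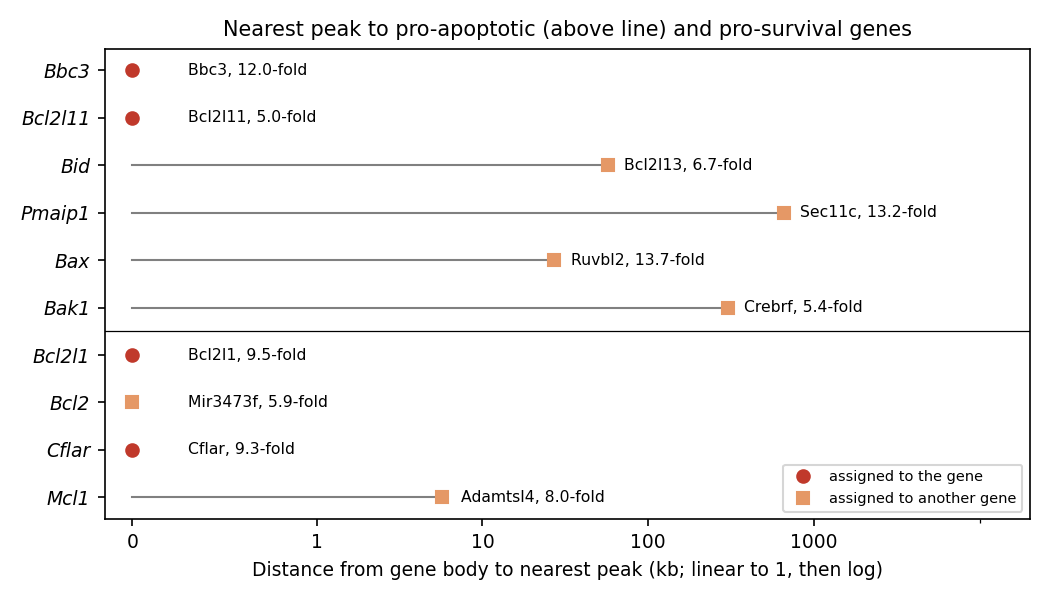
Distance in kb (x axis, linear to 1 kb and logarithmic beyond) from each gene body to the nearest peak, for 6 pro-apoptotic genes above the line and 4 pro-survival genes below it. Text gives the gene to which the authors assigned that peak and its fold enrichment. Each of the 4 pro-survival genes had a peak inside it or 5.72 kb away. Of the 6 pro-apoptotic genes, Bbc3 and Bcl2l11 had a peak inside, and the other 4 lay 27.1 to 658 kb from a peak. The median distance over protein-coding genes was 404 kb (quartiles 95.3 and 1319 kb).

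Of the pro-survival genes, Bcl2l1 had the peak closest to a RefSeq start. It lay at chr2:152831468-152831677 at 9.53-fold (5.28 to 16.1) from 12 tags, with 10.8 as its -log10 q, above 85.3% of promoter peaks. The summit was 204 bp downstream of the RefSeq start and 186 bp downstream of the start that the authors used, which differ by 18 bp. At 210 bp the peak was narrow, against a median width of 266 bp for promoter peaks. Bcl2l1 spans 75.1 kb, and 3 RefSeq starts were listed for it, of which the peak lay at the most upstream. The gene body itself began at -2.075 kb from that start. From the second start the same summit was at -807 bp, and the window of that start held 2 matches to GGGAA.

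Bcl2 had no assigned peak, but a peak lay inside the gene. The peak at chr1:106612762-106613159 had 5.90-fold (2.70 to 11.9) from 6 tags, with 4.67 as its -log10 q. The authors assigned it to the microRNA gene Mir3473f, 66.1 kb away, while their annotation places it in an intron of a Bcl2 transcript. Its summit was 101 kb downstream of the RefSeq start of Bcl2, and its fold was above 41.6% of the intronic peaks. Bcl2 is a long gene of 176 kb. Among the 1166 protein-coding genes of at least that length 4.03% had a peak in the body, against 4.07% of all protein-coding genes. Both shares count peaks near the start along with intronic ones. They therefore do not show how often a long gene holds an intronic peak, which was not tested.

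Mcl1 also had a peak nearby that was assigned elsewhere. It lay at chr3:95668894-95669471, 5.72 kb past the 3′ end of the gene and 10.3 kb downstream of its RefSeq start, at 8.05-fold (4.12 to 14.6) from 9 tags, with 8.18 as its -log10 q. The authors classed it as distal intergenic and assigned it to Adamtsl4, with the peak edge 7.68 kb from the start of the annotated transcript. That transcript is a fragment of 402 bp that begins 10766 bp downstream of the RefSeq start of Adamtsl4. From that RefSeq start the summit lay 18.9 kb downstream, farther than from the RefSeq start of Mcl1. Position and assignment thus named different genes at Bcl2 and Mcl1, and the list does not show which gene, if any, is regulated from these sites.

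Cflar had 1 peak, at chr1:58712061-58712611, at 9.28-fold (4.89 to 16.4) from 10 tags, with 10.8 as its -log10 q. It was above 83.2% of promoter peaks. At 551 bp it was the widest of the member peaks. Its summit lay 966 bp downstream of the RefSeq start and its centre 776 bp downstream of the start that the authors used, so it counted as a promoter peak with a window of 1000 bp but not of 500 bp. Its promoter window, which ended 521 bp short of the peak, held 0 matches to GGGAA and 0 to GGGCGG. The background at this peak, as at the one inside Bcl2, was solved as 0.186 tags, taken as the genome-wide floor, with no local excess above it. Control tags at all peaks were inferred from steps in the solved background, and the control library setting was not given.

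**Figure D2:**
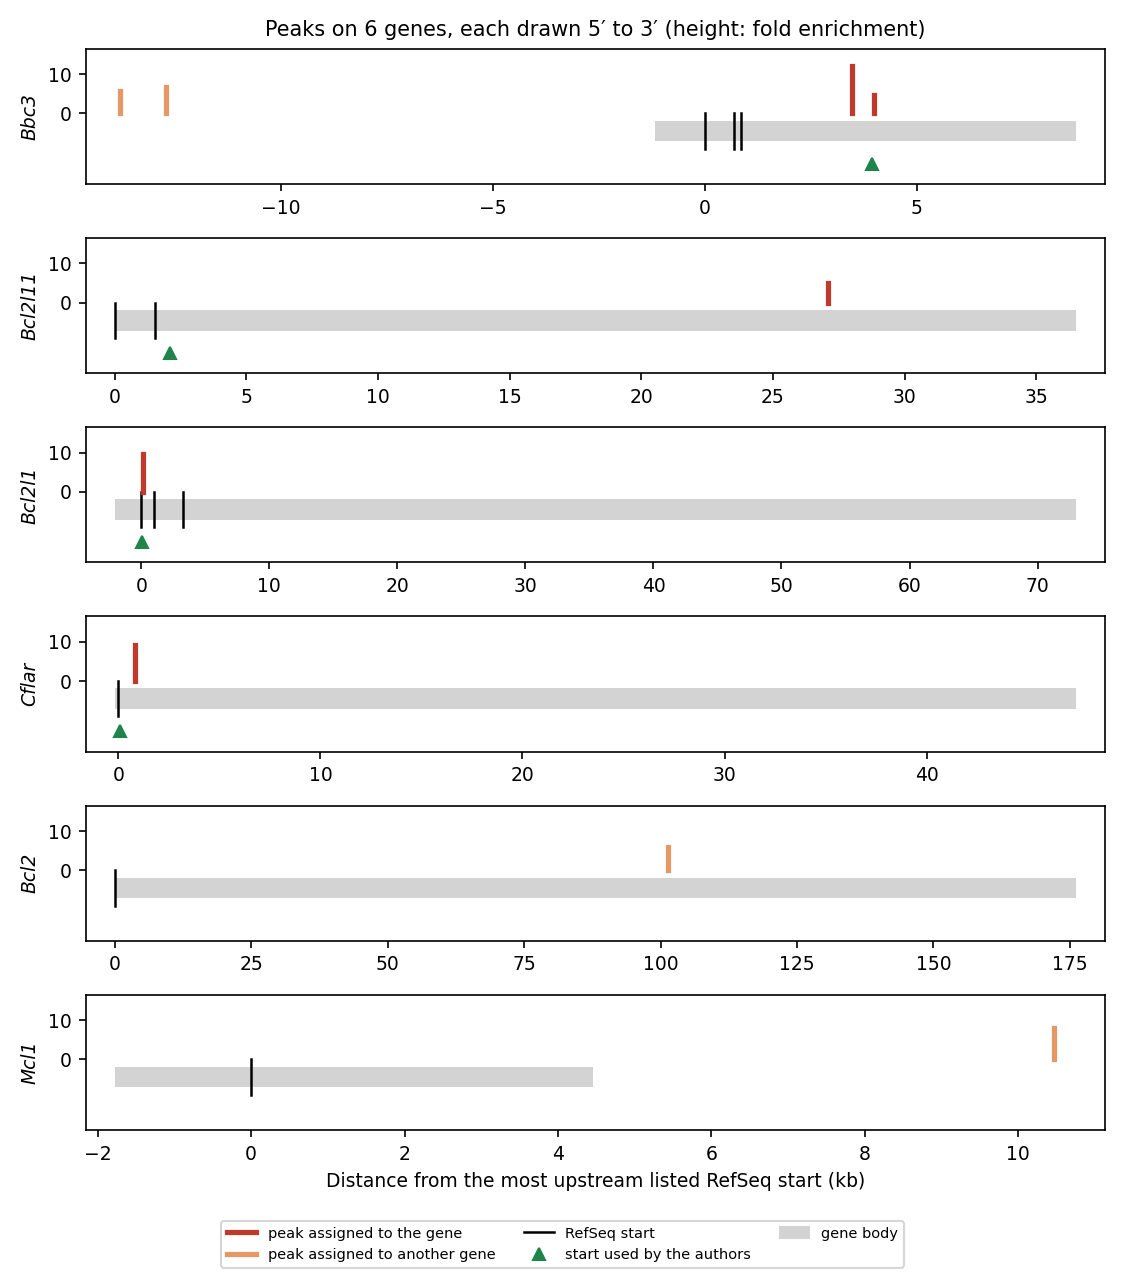
Peaks along 6 genes drawn 5′ to 3′, with distance in kb from the most upstream listed RefSeq start on the x axis and fold enrichment as the height of each peak. Black lines are RefSeq starts and green triangles the starts used by the authors. The peaks of Bbc3 stand 2.67 and 3.07 kb past the nearest RefSeq start, the peak of Bcl2l1 204 bp past it, and those in Bcl2, beyond Mcl1 and upstream of Bbc3 were assigned to other genes.

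Set against each other, pro-apoptotic and pro-survival genes had assigned peaks of overlapping fold. An assigned peak was found at 2 of 6 pro-apoptotic genes and at 2 of 4 pro-survival genes, against 5.38% of protein-coding genes. The difference between the classes was not tested. The folds were 11.98, 5.05 and 4.83 at the pro-apoptotic genes and 9.53 and 9.28 at the pro-survival genes, so the pro-survival values lay inside the range of the others. The median fold of the pro-apoptotic peaks, which was that of the intronic Bcl2l11 peak, was 0.536 times that of the pro-survival peaks. That ratio exceeded 1 when the strongest peak of each class was taken (1.26) and when peaks with a -log10 q under the median were left out (1.27). In each of the 6 pairings of a pro-apoptotic with a pro-survival peak, the conditional 95% interval of the tag ratio, scaled to the fold ratio, contained 1. The widest gap upward was Bbc3 5′ over Cflar at 1.29 (0.565 to 3.13), and the widest downward was Bbc3 3′ over Bcl2l1 at 0.507 (0.140 to 1.54).

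Counting peaks by position in place of the assigned gene moved the pro-survival count. A peak lay in the body of 2 of 6 pro-apoptotic genes and of 3 of 4 pro-survival genes, 5 of the 10 members in all, against 4.07% of protein-coding genes. With 10000 bp added on each side the counts were 2 of 6 and 4 of 4, 6 of the 10 members, against 8.44% of protein-coding genes. The added pro-survival genes were Bcl2 and Mcl1, whose peaks were assigned to Mir3473f and Adamtsl4. The body count was chosen after the data had been seen.

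**Figure D3:**
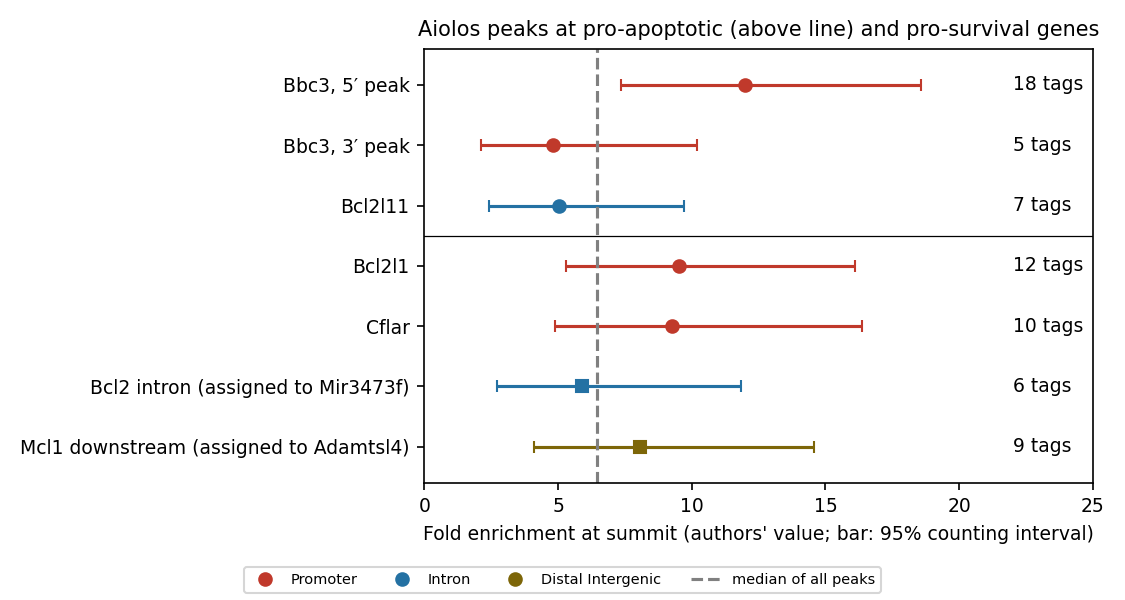
Fold enrichment at the summit on the x axis, with 95% exact Poisson counting intervals as bars, for the 5 assigned member peaks (circles) and the peaks inside Bcl2 and beyond Mcl1 (squares). Pro-apoptotic genes stand above the line, colours give the authors' annotation class, and the dashed line is the median of all peaks, 6.44. The intervals overlap, and the interval of the Bbc3 5′ peak is the only one of the 7 that lies wholly above that median. With the counting error of its control tag carried too, that interval is 2.74 to 24.8 and spans the median.

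Promoter peaks were found at 3 of the 10 members, Bbc3, Bcl2l1 and Cflar, against 3.79% of protein-coding genes, and an assigned intronic peak at Bcl2l11 alone. With RefSeq starts in place of the annotated transcripts, a summit lay within 1000 bp of a start at 2 of the 9 members that have a listed start, Bcl2l1 and Cflar, against 4.75% of 17491 protein-coding genes with one. The 4 member promoter peaks had a median fold of 9.40 and the intronic peak 5.05, a ratio of 1.86. That is the pro-apoptotic over pro-survival ratio of 0.536 turned over, since both set Bcl2l11 against the midpoint of Bcl2l1 and Cflar. Gene class and peak position can therefore not be told apart in these medians. Over the whole list the medians were 6.60 for promoter peaks and 6.31 for intronic peaks. By the authors' starts the summits of the 2 pro-apoptotic promoter peaks, both of Bbc3, lay upstream and those of the 2 pro-survival promoter peaks downstream. Of all promoter peaks, 44.1% had a downstream summit. From the nearest RefSeq start the summits of all 4 lay downstream, so the contrast rests on the internal start annotated for 1 gene. The scaled conditional interval contained 1 in each of the 4 pairings with Bcl2l11, and the nearest to excluding it was the Bbc3 5′ peak at 2.38 (0.947 to 6.73). The Bcl2l1 peak was at 1.89 times the fold of Bcl2l11 (0.686 to 5.66) and the Cflar peak at 1.84 times (0.632 to 5.69). The Bbc3 3′ peak, also classed as promoter, was at 0.957 times the fold of Bcl2l11 (0.240 to 3.50).

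**Figure D4:**
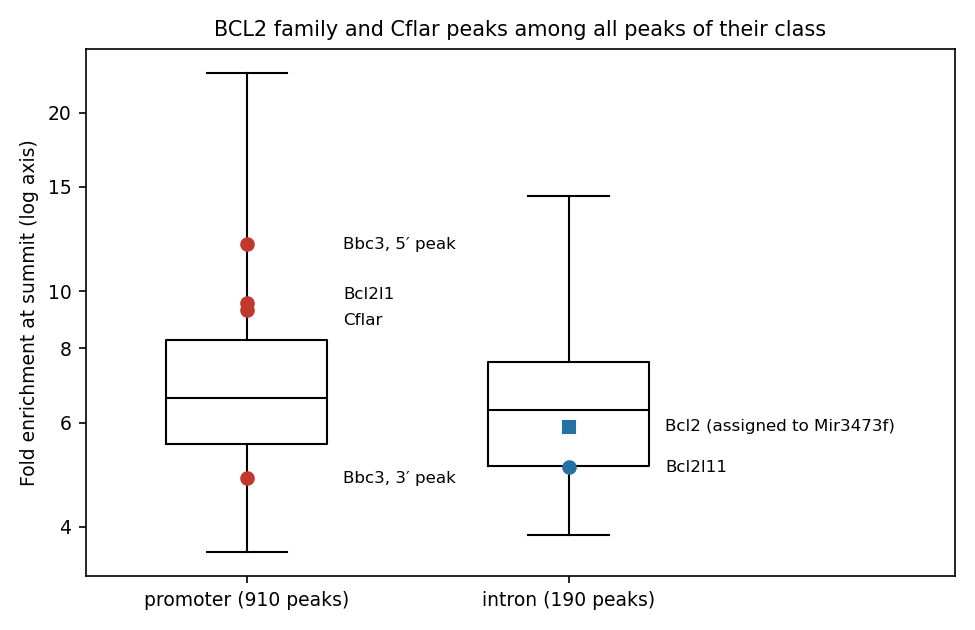
Fold enrichment on a logarithmic y axis for the 910 promoter peaks and the 190 intronic peaks, with boxes from the first to the third quartile, a line at the median and whiskers to the lowest and highest value. Points are member peaks. At promoters 3 of the 4 member peaks stand above the upper quartile of 8.27 and the Bbc3 3′ peak below the lower quartile of 5.53, and in introns both points stand below the median of 6.31.

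The genes whose promoter peak was most like that of a member were sought by summit offset, within 50 bp, and then by the nearest fold, in this 1 library. For the Bbc3 5′ peak it was Abhd2 at 11.9-fold with its summit at -418 bp, out of 44 candidates. For the Bbc3 3′ peak it was Nbn, which encodes a DNA repair protein, at 4.83-fold, the first in the list of 3 candidates with an equal fold. The Nbn summit was at 9 bp, downstream of the start, against -18 bp for the Bbc3 3′ peak. For Bcl2l1 it was Lrif1 at 9.53-fold with its summit at 236 bp against 186 bp, at the limit of the 50 bp allowed. For Cflar it was Ptdss2 at 8.09-fold with its summit at 919 bp against 897 bp, out of 7 candidates. Equal folds arise because the values are set by whole tags and a background in steps, with 5 tags for Nbn and 12 for Lrif1.

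The remaining genes of the pathway, 50 genes in 7 lists, were counted in the same way. Of the 50, 4 had an assigned peak (8%), against 5.38% of protein-coding genes. The other pro-apoptotic BCL2 genes (Bad, Bmf, Bik, Hrk and Bok) had 0 of 5, the other pro-survival BCL2 genes (Bcl2l2, Bcl2l10 and 3 Bcl2a1 copies) 0 of 5, and the BCL2-like genes 1 of 6. That gene was Bcl2l13, which encodes a mitochondrial outer membrane protein, with 6.75-fold (3.22 to 13.0, 7 tags) and its summit at -192 bp from the RefSeq start. Of the death receptor genes 1 of 10 had a peak, Fasl, the ligand of the receptor Fas, at 7.23-fold (4.25 to 11.6, 15 tags), 21.5 kb downstream of its start.

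Of the caspases and mitochondrial factors 1 of 12 had a peak, Cycs, the cytochrome c gene, at 6.60-fold (3.27 to 12.3, 8 tags) and 251 bp downstream of its start. Of the inhibitor of apoptosis genes 1 of 5 had one, Birc6, at 4.41-fold (2.02 to 8.87, 6 tags) and at -23 bp from its start. Its background had the size of 1 control tag, and with the error of that tag carried too its interval was 0.751 to 11.9, which reached 1. The transcription factors that act on BCL2 family genes had 0 of 7 by assignment. By position, 5 of the 50 genes had a peak in the body or within 10000 bp, against 8.44% of protein-coding genes, and Trp53 and Tradd entered while Fasl left. The peak beside Trp53, the p53 gene, at chr11:69580034-69580270, had 7.33-fold (3.75 to 13.3, 9 tags), was assigned to the divergent neighbour Wrap53 and had its summit at -227 bp from the RefSeq start of Trp53. The peak beside Tradd, an adaptor of death receptors, was assigned to Fbxl8 and had 4.22-fold (1.76 to 9.48, 4 tags).

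The promoter window of Trp53 at chr11:69580109-69580408 (plus strand) is shown because it contained a summit and covers the starts of 2 genes that face away from each other, Trp53 and Wrap53. It held 1 match to GGGAA, in capitals, just downstream of the start of Trp53, and 0 to TGANTCA. From the nearest RefSeq start of Wrap53, on the minus strand, the summit lay 118 bp downstream, so it was inside Wrap53 and upstream of Trp53.
Trp53: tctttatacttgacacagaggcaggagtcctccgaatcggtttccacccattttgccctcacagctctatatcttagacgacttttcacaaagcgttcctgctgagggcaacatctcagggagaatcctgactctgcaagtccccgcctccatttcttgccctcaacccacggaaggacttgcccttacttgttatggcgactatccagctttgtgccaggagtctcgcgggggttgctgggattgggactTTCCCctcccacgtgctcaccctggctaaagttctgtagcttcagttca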

How the data were processed

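The deposited peak list of the Aiolos antibody library was analysed. Per the submitters' processing notes, MACS2, SAMtools, Picard and Bowtie2 were used on mm10. The settings for the duplicate filter, the q cutoff and the control library were not given in the sources used here. Per the file headers, the authors' values are a fold enrichment (a ratio, taken as pileup plus 1 over background plus 1), the -log10 of the p-value and q-value, and a score deposited as 10 times the -log10 q, cut to whole numbers. Whole pileups were solved from fold and p-value, with an error of at most 1.75e-05 in -log10 p at all 1404 peaks. The summits held 4 to 63 tags, median 8, and total depth was not given. Fold intervals treat the background as fixed. Ratios of folds use conditional binomial (Clopper-Pearson) intervals of the tag ratio, scaled to the fold ratio with the background fixed too. Both cover counting error only.

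Genes, lengths and RefSeq starts came from RefSeq (GRCm38.p6, the assembly of mm10), and all 1404 gene identifiers matched. Offsets are negative upstream of a start. Members and lists were chosen with earlier results of these data known, and the rule names all members, listed genes with a peak, genes of nearest peaks and most alike genes; Ccdc9, Tradd, Trp53 and Morrbid were named after their values were seen. With 1 library per group no test between samples was made. Python 3.11.15, SciPy 1.17.1 and pandas 2.3.3 were used, and the recovery was tested on simulated data.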

Additional observations from a re-analysis of the deposited data

How the results depend on the processing

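Stricter peak sets, other promoter windows, other distance rules and counts by position were tried, and the values that changed most are given here. The number of pro-apoptotic genes with a peak was 1 in place of 2 when peaks with a -log10 q under the median were left out, above the median fold and within 10000 bp of the start, since each leaves out the Bcl2l11 peak. The first 2 of these settings kept 727 and 687 of the 1404 peaks. The share of all protein-coding genes under these settings is not given here, so the drop is no result about the pro-apoptotic genes. The number of pro-survival genes was 4 in place of 2 with the gene body and 10000 bp around it, against 8.44% of protein-coding genes. The log2 ratio of median folds, pro-apoptotic over pro-survival, was -0.90 (counting interval -2.37 to 0.38). That interval covers the tags of Bcl2l11 against those of Bcl2l1 and Cflar together. It leaves out both Bbc3 peaks and takes the median peak as fixed. The log2 ratio reversed to 0.33 with the strongest peak of each class. It was 0.35 when peaks with a -log10 q under the median were left out, since both settings leave out the weaker pro-apoptotic peaks. With -log10 q in place of fold it was -1.95, and with promoter peaks alone -0.16. The promoter over intronic log2 ratio was 0.90, and with -log10 q in place of fold 1.95. Both are the pro-apoptotic over pro-survival values with the sign changed, from the same peaks. Ranked by tags in place of fold, the percentile among all peaks was 3.21 in place of 10.8 for the Bbc3 3′ peak, 29.1 in place of 15.5 for Bcl2l11, 76.5 in place of 87.7 for Bcl2l1 and 64.6 in place of 85.7 for Cflar. The promoter over intronic ratio had no value without peaks of a -log10 q under the median or at promoters alone, where no intronic member peak is left. All genes of the table as background gave 2.55% with a peak in place of 5.38%. Depth limits every comparison of folds, as the summits rest on 5 to 18 tags. No paired analysis was possible because each group holds a single library. The use of RefSeq starts and of the gene body alone was chosen after seeing the data.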

Other observations

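Past the 3′ end of Bcl2l11, the next peak in the list belonged to Morrbid, a long non-coding RNA known in mouse myeloid cells to repress Bcl2l11 in cis. The peak lay at chr2:128429907-128430128, 267 kb beyond the end of Bcl2l11, at 7.17-fold (3.55 to 13.4, the exact Poisson 95% interval of 8 tags), with 6.57 as its -log10 q, above 59.6% of promoter peaks. Its summit was at -618 bp from the RefSeq start of Morrbid. The promoter window at chr2:128429302-128429601 (minus strand, GRCm38.p6) ended 306 bp short of the peak. It is shown because it held 2 matches to TGGGAA, found in 25.6% of all windows, and 1 to the AP-1 motif TGANTCA, found in 7.81%. Capitals mark GGGAA.
Morrbid: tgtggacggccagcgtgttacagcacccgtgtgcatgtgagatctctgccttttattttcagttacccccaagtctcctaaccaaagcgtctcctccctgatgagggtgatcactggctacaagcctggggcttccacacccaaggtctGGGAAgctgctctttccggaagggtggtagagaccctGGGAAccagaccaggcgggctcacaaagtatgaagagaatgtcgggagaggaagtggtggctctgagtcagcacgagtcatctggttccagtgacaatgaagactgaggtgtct

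The locus was named after its values were seen. Whether Aiolos acts on Bcl2l11 through Morrbid was not tested, and no expression was measured in these libraries.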
